A study of Homo sapiens with 9 samples.

Results

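Solute carriers are the membrane proteins that move amino acids, sugars, nucleosides, vitamins, metal ions and small anions across the plasma membrane and the membranes of organelles, driven by the gradient of the solute itself or of a coupled ion. Their genes carry a family number between the letters SLC and, in most families, A, and members of a family usually carry related cargo. In colon carcinoma cells the amino acid carriers are known for supplying glutamine, arginine and neutral amino acids, and their mRNAs can respond to the amino acid supply.

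The genes described here are those of the deposited table whose symbol has the SLC form, without the mitochondrial SLC25 family and without SLC2A1, SLC2A3, SLC16A3, SLC7A11, SLC7A5, SLC3A2 and SLC1A5. This rule uses the symbols alone and no measured value, though it was set with earlier results of these data known. It found 141 of 11350 genes, in 39 families that were sorted into 9 transport classes by family number. It left out 37 SLC25 genes and 6 of the 7 genes named, SLC2A3 not being in the table analysed. It also missed the carriers whose symbols have a letter other than A after the family number, which were not counted. Family SLC35 is therefore covered by its 5 SLC35A genes alone. The symbols of 8 members belong to no carrier gene, among them SLC9A3R1 and SLC9A3R2 (the scaffold proteins NHERF1 and NHERF2), the regulator SLC2A4RG, the antisense gene SLC9A3-AS1 and the pseudogenes SLC7A5P2 and SLC26A10, with SLC4A1AP and SLC7A6OS; SLC7A5P2 can share reads with SLC7A5. None of these 8 differed between the lines at the threshold used.

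RNA-seq was done on HCT116 cells, a human colorectal carcinoma line, without treatment. HUWE1-P are the parental cells, whose endogenous HUWE1 gene was not edited. In HUWE1-WT cells the end of that gene, which codes for the catalytic part of this ubiquitin ligase, was replaced by the same coding sequence with the wild type cysteine, and in HUWE1-CS cells by a sequence with a serine in place of the catalytic cysteine. Both edited lines also carry, behind the replaced sequence, a P2A site with a gene for blasticidin resistance, and were grown from single cell clones after selection with puromycin and blasticidin; the parental cells carry neither change. How many clones the 3 libraries of each line represent is not given in the sources used here, so that clone and genotype cannot be told apart and the p-values measure the spread between these libraries. All lines were grown in high glucose medium with serum, non-essential amino acids and 2-mercaptoethanol.

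The 9 libraries held between 1610984 and 2060349 counts, and 3 counts correspond to 1.46 to 1.86 CPM (counts scaled to library size). This floor and the intervals given below take in counting error only, since reads are not independent molecules. Between 0.743% and 0.859% of the counts of a library fell on solute carriers, and their mean levels ran from 3.56 to 848 CPM with a median of 29.6 CPM. HUWE1 mRNA itself was at 561, 545 and 522 CPM in HUWE1-P, 498, 453 and 455 CPM in HUWE1-WT, and 345, 323 and 339 CPM in HUWE1-CS libraries, with log2 fold changes of -0.69 (FDR = 1.06e-15) and -0.48 (FDR = 4.68e-09) in HUWE1-CS against HUWE1-P and HUWE1-WT, while the codon exchange cannot be read from counts per gene. Of 8 colon epithelial markers, 6 were in the table; relative to HUWE1-P, EPCAM and CDH1 were higher and KRT8 and KRT18 lower in HUWE1-CS cells. The summed level of the 6 was between 4115 and 4533 CPM in the 6 HUWE1-P and HUWE1-WT libraries and between 3670 and 4044 CPM in HUWE1-CS libraries. Of 8 markers of other cell types, 3 (CD68, COL1A1 and ACTA2) were in the table, summing to between 32.3 and 44.2 CPM in those 6 libraries and between 22.6 and 32.6 CPM in HUWE1-CS libraries; the other 5 (PTPRC, CD3E, COL1A2, PECAM1 and VWF) were not. Of the 3, ACTA2 rose against HUWE1-P, from 1.97 ± 1.37 to 8.32 ± 0.696 CPM, and COL1A1 fell, from 22.2 ± 2.75 to 11.4 ± 3.12 CPM. ACTA2 had 1, 6 and 4 counts in HUWE1-P, 8, 10 and 7 in HUWE1-WT, and 15, 15 and 13 in HUWE1-CS libraries. With these counts it passed the filter for low genes only through the HUWE1-CS libraries, so that its call depends on that line. Against HUWE1-WT, at 4.72 ± 0.695 CPM, ACTA2 was not called (FDR = 0.121). The part of these markers in the results was not tested. Bulk RNA cannot tell fewer cells that express a gene from less RNA per cell.

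Counts were normalized by TMM and tested by edgeR's quasi-likelihood F-test over all 11350 genes, and a gene was called where its false discovery rate (FDR, Benjamini-Hochberg over those genes) was 0.01 or less. Values are TMM-normalized CPM per library or mean ± SD (n = 3 for each line), and differences are log2 fold changes with their standard error (SE).

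In HUWE1-CS cells, 7 of 25 genes of the amino acid class fell against the parental cells and 1 rose. The zinc, ion and vitamin carriers held genes of both directions, and the sugar carriers 2 genes that rose. Against HUWE1-P, 26 of 141 solute carriers (18.4%) were called, a share close to the 17.0% of all genes tested. Of these, 9 were higher and 17 lower, where 8.46% of all genes were higher and 8.58% lower. Against HUWE1-WT, 21 solute carriers were called, 6 higher and 15 lower, where 15.5% of all genes were called, 7.42% higher and 8.08% lower. Removal of the trend with transcript length gave 9 higher and 13 lower in this comparison. Both comparisons use the same HUWE1-CS libraries. In HUWE1-WT against HUWE1-P no solute carrier was called by edgeR or by DESeq2, and 6 had an unadjusted p under 0.05 in edgeR, where 7 genes of the whole table (0.0617%) were called.

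The 3 HUWE1-CS libraries lay beyond all 6 others in 40 solute carriers (28.4%), above them in 15 and below them in 25, where 26.3% of all genes tested did. Of the 26 carriers called against HUWE1-P, 24 were among these; the other two were SLC4A7 and SLC19A1, in each of which a single HUWE1-CS library reached into the range of HUWE1-WT. Of the 26, 16 were also called in the same direction against HUWE1-WT, and none had the opposite sign there. The changes were moderate: 3 of the 26 reached a log2 fold change of 1 in either direction. Just inside the threshold, 6 called carriers had an FDR above 0.005, and just outside it 10 others had an FDR of up to 0.02. Without HUWE1-CS replicate 2 the count was 16, without HUWE1-P replicate 3 it was 17, and DESeq2 called 14.

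Called genes were more frequent among carriers of higher level. Below 20 CPM, 4 of 53 solute carriers (7.55%) were called in HUWE1-CS against HUWE1-P, beside 7.80% of all genes of that level. Between 20 and 100 CPM the shares were 21.4% (15 of 70) and 15.5%, and from 100 CPM they were 38.9% (7 of 18) and 32.9%. A carrier of a few CPM had to change more to be called at this depth.

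The carriers of amino acids and peptides were the class with the most lower genes by count. Of 25 members, 7 fell and 1 rose against HUWE1-P, and the same numbers fell and rose against HUWE1-WT. Of all genes tested, 8.58% were lower against HUWE1-P and 8.08% against HUWE1-WT. By share the class did not stand alone: against HUWE1-P, 2 of 8 carboxylate carriers and 1 of 3 vesicular and phosphate carriers fell. The 25 include SLC7A6OS and the pseudogene SLC7A5P2, which are no carrier genes. The log2 fold change was negative in 22 of the 25 against HUWE1-P and in 20 against HUWE1-WT, with medians of -0.25 and -0.23, where the median over all genes was -0.01 and 0.00. Over the settings tried, between 5 and 8 members were called lower and 1 higher against HUWE1-P. Summed over the class, the level was 2477 ± 43.1 CPM in HUWE1-P, 2407 ± 62.2 CPM in HUWE1-WT and 1884 ± 105 CPM in HUWE1-CS cells, a difference of -23.9% from HUWE1-P. The sum was between 1775 and 1986 CPM in the HUWE1-CS libraries and between 2347 and 2507 CPM in the 6 others, without overlap. SLC38A2 is the highest gene of the class; without it the difference was -16.8%, and without SLC38A2, SLC38A1 and SLC7A1 it was -11.5%.

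SLC38A2 encodes SNAT2, a sodium-coupled carrier of neutral amino acids such as glutamine and alanine (Entrez 54407, chr12:46751971-46766556 on the minus strand of GRCh37). It was the highest of all 141 members at 848 CPM. Its level was 997, 929 and 975 CPM in HUWE1-P, 966, 921 and 960 CPM in HUWE1-WT, and 671, 607 and 610 CPM in HUWE1-CS libraries. All 3 HUWE1-CS libraries lay far below the 6 others, which overlapped each other. The log2 fold change was -0.62 against HUWE1-P (SE 0.0588, FDR = 1.51e-15) and -0.59 against HUWE1-WT (SE 0.0589, FDR = 1.62e-14), the smallest FDR of any member in both comparisons.

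SLC38A1 encodes SNAT1, a related glutamine carrier, and its gene lies 88170 bases from SLC38A2 on chromosome 12. It was at 429, 392 and 422 CPM in HUWE1-P, at 402, 366 and 399 CPM in HUWE1-WT, and at 349, 277 and 343 CPM in HUWE1-CS libraries. All HUWE1-CS libraries were below the 6 others, with a log2 fold change of -0.36 against HUWE1-P (SE 0.0695, FDR = 1.94e-05) and -0.27 against HUWE1-WT (FDR = 0.00194). The call against HUWE1-WT was lost without HUWE1-WT replicate 1, HUWE1-WT replicate 3 or HUWE1-CS replicate 2 and in DESeq2. SLC38A5, which encodes SNAT5, fell against HUWE1-P with a log2 fold change of -0.38 (FDR = 0.00539), and its value against HUWE1-WT was -0.30 (FDR = 0.0405). Its call was lost in DESeq2 and without HUWE1-P replicate 1 or 3 or HUWE1-CS replicate 1 or 2.

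SLC38A10, of the same family, went the other way. It was at 134, 153 and 133 CPM in HUWE1-P, 138, 143 and 147 CPM in HUWE1-WT, and 176, 170 and 196 CPM in HUWE1-CS libraries. Every HUWE1-CS library was above all 6 others, with a log2 fold change of 0.37 (SE 0.0839, FDR = 3.33e-04) against HUWE1-P and 0.34 (FDR = 0.00112) against HUWE1-WT, the latter call being lost in DESeq2 and without HUWE1-CS replicate 3. The SLC38 family of 6 members thus held 3 lower and 1 higher gene.

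The cationic amino acid carriers fell as well. SLC7A1 encodes CAT1, which takes up arginine and lysine, and was at 191, 190 and 187 CPM in HUWE1-P, 186, 178 and 174 CPM in HUWE1-WT, and 153, 115 and 126 CPM in HUWE1-CS libraries. The log2 fold change was -0.53 against HUWE1-P (SE 0.0853, FDR = 3.91e-07) and -0.45 against HUWE1-WT (FDR = 1.91e-05). SLC7A2, which encodes CAT2, was lower in level and fell from 48.8 ± 1.09 CPM in HUWE1-P and 44.6 ± 2.88 CPM in HUWE1-WT to 27.3 ± 2.10 CPM in HUWE1-CS. These are log2 fold changes of -0.84 against HUWE1-P (SE 0.154, FDR = 7.99e-06) and -0.71 against HUWE1-WT (FDR = 2.95e-04).

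SLC1A3 encodes EAAT1, a glutamate and aspartate carrier. It was at 27.3, 19.6 and 26.5 CPM in HUWE1-P, 30.7, 33.3 and 21.5 CPM in HUWE1-WT, and 14.2, 13.0 and 13.4 CPM in HUWE1-CS libraries. The HUWE1-CS values were close together and below the wide range of the others, with a log2 fold change of -0.85 (FDR = 0.00167) against HUWE1-P and -1.07 (FDR = 4.41e-05) against HUWE1-WT. The first call was lost in DESeq2 and without HUWE1-P replicate 1, HUWE1-P replicate 3 or HUWE1-CS replicate 2. The taurine carrier SLC6A6 fell from 58.0 ± 3.84 CPM in HUWE1-P and 65.5 ± 10.1 CPM in HUWE1-WT to 37.7 ± 3.76 CPM in HUWE1-CS cells, with log2 fold changes of -0.62 (FDR = 3.27e-04) and -0.80 (FDR = 2.77e-06). SLC36A1, which encodes the proton-coupled carrier PAT1, was called against HUWE1-WT alone, at a log2 fold change of -1.29 (FDR = 1.69e-04), while its value against HUWE1-P was -0.93 (FDR = 0.0111). It is 1 of 5 carriers called only against HUWE1-WT, with SLC39A7, SLC39A8, SLC45A4 and SLC52A2 below. SLC36A1, SLC39A8 and SLC45A4 are named for that reason and were chosen after their values were seen. SLC39A7 and SLC52A2 are also the highest members of their classes in CPM per kilobase.

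Of the amino acid carriers that the rule leaves out, SLC7A5 (LAT1, large neutral amino acids) was lower against HUWE1-P at -0.40. SLC1A5 (ASCT2, glutamine) was at -0.21 against HUWE1-P (FDR = 0.0128) and was called lower against HUWE1-WT, at -0.23 (FDR = 0.00658). SLC3A2 (the partner chain of LAT1) and SLC7A11 (cystine) were at -0.12 and -0.08 against HUWE1-P and were called in neither comparison.

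The promoters of 4 of these genes are printed as examples: SLC38A2, SLC7A1 and SLC1A3, which fell, and SLC38A10, which rose. They were picked by hand and do not stand for the class. Of the fallen carriers not printed, SLC38A1 holds none of the motifs named below, and SLC38A5 holds the E-box and TGCNCNC. Each run has 250 bases before and 50 after the annotated start, read 5′ to 3′ on the strand of the gene, from RefSeq on GRCh38.p14. Capitals mark the letters of the motifs searched.
SLC38A2, chr12:46372724-46373023, minus strand: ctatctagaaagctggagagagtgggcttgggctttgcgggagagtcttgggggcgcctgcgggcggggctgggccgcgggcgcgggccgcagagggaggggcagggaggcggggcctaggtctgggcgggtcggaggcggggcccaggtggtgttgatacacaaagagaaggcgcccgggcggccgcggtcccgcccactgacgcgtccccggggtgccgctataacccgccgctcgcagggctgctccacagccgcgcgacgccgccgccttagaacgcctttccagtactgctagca
SLC7A1, chr13:29595639-29595938, minus strand: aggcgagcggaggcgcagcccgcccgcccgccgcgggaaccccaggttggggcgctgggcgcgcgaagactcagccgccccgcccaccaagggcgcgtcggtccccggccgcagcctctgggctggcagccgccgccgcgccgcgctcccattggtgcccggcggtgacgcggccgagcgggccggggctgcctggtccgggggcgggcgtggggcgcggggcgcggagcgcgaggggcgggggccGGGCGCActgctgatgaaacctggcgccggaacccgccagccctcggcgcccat
SLC1A3, chr5:36596338-36596637, plus strand: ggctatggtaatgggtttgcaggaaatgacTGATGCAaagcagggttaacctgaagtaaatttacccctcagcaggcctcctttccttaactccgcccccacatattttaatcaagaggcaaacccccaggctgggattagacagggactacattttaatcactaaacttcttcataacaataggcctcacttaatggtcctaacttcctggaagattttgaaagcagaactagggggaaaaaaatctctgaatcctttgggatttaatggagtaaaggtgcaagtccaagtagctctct
SLC38A10, chr17:81295258-81295557, minus strand: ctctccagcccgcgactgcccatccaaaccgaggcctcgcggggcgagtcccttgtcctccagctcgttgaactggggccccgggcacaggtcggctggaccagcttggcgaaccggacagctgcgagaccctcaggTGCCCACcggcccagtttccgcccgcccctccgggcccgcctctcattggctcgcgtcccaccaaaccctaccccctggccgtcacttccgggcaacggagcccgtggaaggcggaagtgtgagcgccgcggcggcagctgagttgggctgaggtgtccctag
The motifs searched, on both strands, were the amino acid response element core TGCATCA, the E-box CACGTG and the metal response element core TGCNCNC. The capitals in SLC1A3 are TGCATCA on the opposite strand, those in SLC7A1 and SLC38A10 are matches to TGCNCNC, and the SLC38A2 run holds none of the 3. RefSeq promoters were at hand for 115 of the members. TGCATCA was in 1.74% of them, beside 1.16% of the promoters of 9041 genes tested, the E-box in 11.3% beside 10.6%, and TGCNCNC in 60.9% beside 64.4%. TGCNCNC was in 6 of 8 promoters of carriers that rose and in 4 of 12 of those that fell. TGCATCA was in 0 of these 8 and in 1 of these 12, that of SLC1A3. These matches are a description of the letters in this window and are not counts of response elements. The amino acid response element core was searched as 1 fixed string. An element with another letter in it, or one outside the window, as in an intron, was not looked for. The absence of this string from the SLC38A2 and SLC7A1 runs therefore cannot show that these genes lack such an element.

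The carriers of metal ions held called genes of both directions. Zinc enters the cytosol through the ZIP proteins of family SLC39 and leaves it, or enters organelles, through the ZnT proteins of family SLC30. Of 25 members of the class, 2 rose and 2 fell against HUWE1-P, and 2 rose and 3 fell against HUWE1-WT. The called share was 16% against HUWE1-P and 20% against HUWE1-WT, beside 17.0% and 15.5% of all genes tested. The summed level of the class was 1713 ± 22.5 CPM in HUWE1-P and 1768 ± 34.6 CPM in HUWE1-CS cells.

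SLC39A14 encodes ZIP14, which carries zinc, iron and manganese. It was at 222, 199 and 233 CPM in HUWE1-P, 240, 209 and 216 CPM in HUWE1-WT, and 148, 128 and 178 CPM in HUWE1-CS libraries. All HUWE1-CS libraries lay below the others, with log2 fold changes of -0.53 (SE 0.0844, FDR = 3.22e-07) against HUWE1-P and -0.55 (FDR = 1.32e-07) against HUWE1-WT. Its closest relative, SLC39A8 (ZIP8), fell against HUWE1-WT, at -0.64 (FDR = 0.00103, lost in DESeq2 and without HUWE1-CS replicate 3), and was at -0.36 against HUWE1-P (FDR = 0.0917). SLC30A7 (ZnT7), which loads zinc into the Golgi, fell from 34.9 ± 1.87 CPM in HUWE1-P and 42.7 ± 3.70 CPM in HUWE1-WT to 23.4 ± 3.61 CPM in HUWE1-CS cells, with log2 fold changes of -0.58 (FDR = 0.00772) and -0.86 (FDR = 2.58e-05). The first of these calls was lost in DESeq2, after removal of the length trend and without any 1 of the HUWE1-P libraries or HUWE1-CS replicate 1 or 2.

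The ZIP genes that rose were SLC39A10 (ZIP10) and SLC39A4 (ZIP4), which take up zinc at the plasma membrane. SLC39A10 was at 87.5, 91.5 and 86.7 CPM in HUWE1-P, 86.3, 71.4 and 90.1 CPM in HUWE1-WT, and 112, 111 and 124 CPM in HUWE1-CS libraries, a log2 fold change of 0.38 (FDR = 0.00204) against HUWE1-P and 0.49 (FDR = 1.18e-04) against HUWE1-WT. The first call was lost in DESeq2 and without HUWE1-P replicate 1 or 3 or HUWE1-CS replicate 3. SLC39A4 was at 64.6, 56.7 and 60.2 CPM in HUWE1-P, 67.2, 75.3 and 62.2 CPM in HUWE1-WT, and 76.0, 95.3 and 92.3 CPM in HUWE1-CS libraries. Its lowest HUWE1-CS library was just above the highest HUWE1-WT library; it rose against HUWE1-P by 0.54 on the log2 scale (FDR = 1.32e-04), and was at 0.36 against HUWE1-WT (FDR = 0.0119). SLC39A7 (ZIP7), which releases zinc from the endoplasmic reticulum and is the highest member of its class per kilobase of transcript, rose against HUWE1-WT at 0.34 (FDR = 5.45e-04, lost without HUWE1-WT replicate 2 or HUWE1-CS replicate 1) and was at 0.24 against HUWE1-P (FDR = 0.016).

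Of 8 listed genes of the zinc response that are no carriers, 4 were in the table, and all 4 fell against HUWE1-P: the metallothioneins MT2A (-1.01), MT1X (-1.58) and MT1E (-0.52), which bind zinc and copper, and MTF1 (-0.53), the transcription factor that senses zinc. Of all genes tested, 8.46% were higher and 8.58% lower against HUWE1-P. The list was chosen with earlier results of these data known. The 3 metallothionein genes lie close together, between bases 56642496 and 56718108 of chromosome 16, and need not count as separate cases. Against HUWE1-WT the 3 metallothioneins fell, and MTF1 was at -0.40 (FDR = 0.0665). SLC30A1 (ZnT1), the zinc exporter that MTF1 controls, was at -0.11 (FDR = 0.763), with 24.8, 16.8 and 16.3 CPM in HUWE1-P and 22.0, 15.4 and 15.7 CPM in HUWE1-CS libraries. Of 9 genes of iron handling, the ferritin chains FTH1 (0.33) and FTL (0.47) rose and the transferrin receptor TFRC (-0.32) fell against HUWE1-P; TFRC was at -0.07 against HUWE1-WT (FDR = 0.482), and at -0.25 in HUWE1-WT against HUWE1-P (FDR = 0.107).

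The carriers of inorganic ions and pH, which include the bicarbonate family SLC4 and the sodium-proton exchangers SLC9, held 2 higher and 2 lower genes among 28. The called share against HUWE1-P was 14.3%, beside 17.0% of all genes tested. SLC4A3 (AE3, a chloride-bicarbonate exchanger) rose; it was at 20.5, 18.0 and 20.7 CPM in HUWE1-P, 31.9, 21.3 and 22.1 CPM in HUWE1-WT, and 37.4, 37.4 and 36.6 CPM in HUWE1-CS libraries. One HUWE1-WT library stood between the groups, and the log2 fold change was 0.91 (FDR = 3.50e-05) against HUWE1-P and 0.57 (FDR = 0.00906) against HUWE1-WT, the latter call being lost in 9 of 20 settings, among them without HUWE1-P replicate 1, HUWE1-WT replicate 2 or 3 or any 1 HUWE1-CS library. SLC24A1, a sodium-calcium-potassium exchanger known from rod photoreceptors, rose from 9.95 ± 1.41 to 18.0 ± 3.43 CPM (0.84, FDR = 0.00887), a call lost in 8 of 20 settings, among them without any 1 HUWE1-P library or HUWE1-CS replicate 1 or 2. SLC4A7 (NBCn1, a sodium bicarbonate carrier) fell by 0.62 on the log2 scale (FDR = 6.11e-05) and SLC9A8 (NHE8) by 0.83 (FDR = 0.00429, lost in 6 of 20 settings, among them without HUWE1-P replicate 1 or 2 or HUWE1-CS replicate 2 or 3), and both had smaller, uncalled values of -0.36 and -0.59 against HUWE1-WT. The highest member of the class per kilobase was SLC9A3R1, the scaffold, at 0.16 (FDR = 0.126).

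Among 26 carriers of vitamins, lipids and organic ions, the 2 members of family SLC19 fell and 2 of 4 members of family SLC44 rose. The other 2, SLC44A2 and SLC44A3, had negative values against HUWE1-P, uncalled but with an unadjusted p under 0.05 in edgeR. In the class, 15.4% of members were called against HUWE1-P, beside 17.0% of all genes tested. SLC19A2, a thiamine carrier, was at 41.0, 35.9 and 45.3 CPM in HUWE1-P, 37.1, 33.3 and 34.3 CPM in HUWE1-WT, and 22.0, 19.3 and 23.2 CPM in HUWE1-CS libraries. The HUWE1-CS libraries lay below all others, while the other two lines overlapped; the log2 fold changes were -0.93 (FDR = 8.06e-06) against HUWE1-P and -0.70 (FDR = 0.0016) against HUWE1-WT. The second call was lost in DESeq2 and without HUWE1-WT replicate 1 or HUWE1-CS replicate 2. SLC19A1, the reduced folate carrier, fell from 107 ± 2.52 CPM in HUWE1-P to 82.0 ± 7.96 CPM in HUWE1-CS cells, with -0.39 (FDR = 0.00241) against HUWE1-P and -0.37 (FDR = 0.00457) against HUWE1-WT. The first call was lost in 4 of 20 settings (DESeq2, without HUWE1-P replicate 3, HUWE1-CS replicate 1 or HUWE1-CS replicate 2) and the second in 6 of 20 (DESeq2, the length trend removed, without HUWE1-WT replicate 1 or 3 or HUWE1-CS replicate 1 or 2).

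SLC44A1, the choline carrier CTL1, was at 102, 81.9 and 89.6 CPM in HUWE1-P, 113, 104 and 104 CPM in HUWE1-WT, and 126, 130 and 131 CPM in HUWE1-CS libraries. HUWE1-WT lay between the other lines, and the log2 fold change was 0.50 (FDR = 2.02e-05) against HUWE1-P and 0.27 (FDR = 0.0287) against HUWE1-WT. SLC44A5, of the same family, had the highest fold change of all members but rested on few reads. It had 8 counts summed over the HUWE1-P libraries, 13 over HUWE1-WT and 35 over HUWE1-CS. With these counts it passed the filter for low genes only through the HUWE1-CS libraries, where it is high. Its rank and its call therefore depend on that line, and it fell under the filter without HUWE1-CS replicate 2. Each HUWE1-P library had at most 3 counts; the ratio of HUWE1-CS to HUWE1-P was 4.63 with an exact 95% interval of 2.11 to 11.5 that covers counting error only. Its fitted value of 2.16 (FDR = 7.77e-04) depends on this, was not called by DESeq2, and was 1.43 against HUWE1-WT (FDR = 0.0169). SLC52A2, a riboflavin carrier and the highest of the class per kilobase, rose against HUWE1-WT at 0.33 (FDR = 0.00129, lost in DESeq2) and was at 0.26 against HUWE1-P (FDR = 0.0114).

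The sugar class of 13 held 2 genes that rose. Its called share against HUWE1-P was 15.4%, beside 17.0% of all genes tested. SLC50A1 (SWEET1), a sugar carrier, was at 44.7, 53.3 and 40.0 CPM in HUWE1-P, 48.1, 46.4 and 45.9 CPM in HUWE1-WT, and 78.3, 74.9 and 73.7 CPM in HUWE1-CS libraries. The HUWE1-CS libraries stood well apart, with log2 fold changes of 0.72 (SE 0.126, FDR = 2.57e-06) and 0.69 (FDR = 8.01e-06). SLC37A4, which carries glucose-6-phosphate into the endoplasmic reticulum, rose by 0.34 (FDR = 0.00726, lost in 7 of 20 settings, among them without HUWE1-P replicate 1 or 3 or HUWE1-CS replicate 1 or 2) and was at 0.28 against HUWE1-WT. SLC45A4 fell against HUWE1-WT at -0.72 (FDR = 0.00711) and was at -0.64 against HUWE1-P (FDR = 0.0183); its call was lost in 7 of 20 settings, among them without HUWE1-WT replicate 1 or 2 or HUWE1-CS replicate 1 or 3. The highest member per kilobase, SLC2A4RG, was at -0.03. Outside the rule, the glucose carrier SLC2A1 was higher at 1.38.

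Some members of family SLC16, among them SLC16A1 and SLC16A7, are monocarboxylate carriers that move lactate and pyruvate. Of 8 members, 2 fell against HUWE1-P, where 8.58% of all genes tested did. SLC16A1 (MCT1) was at 220, 218 and 228 CPM in HUWE1-P, 242, 242 and 244 CPM in HUWE1-WT, and 192, 188 and 184 CPM in HUWE1-CS libraries. The ranges did not overlap, yet the difference from HUWE1-P was small, at -0.24 (FDR = 0.00956), and that call was lost in 14 of 20 settings, among them without any 1 HUWE1-P or HUWE1-CS library or HUWE1-WT replicate 2 or 3, while -0.37 against HUWE1-WT (FDR = 5.65e-05) was kept in all of them. SLC16A7 (MCT2) was at 9.93, 8.42 and 8.19 CPM in HUWE1-P, 7.53, 9.27 and 8.72 CPM in HUWE1-WT, and 1.78, 1.70 and 6.39 CPM in HUWE1-CS libraries. HUWE1-CS replicate 3 stood well above the other two; the log2 fold change was -1.40 (FDR = 0.00626), it was -2.28 without that library and -1.08 without HUWE1-CS replicate 2, and the call was lost in 7 of 19 settings, among them without any 1 HUWE1-P library or HUWE1-CS replicate 1 or 2. The chaperone of MCT1, BSG, was at 0.18 against HUWE1-P (FDR = 0.0135) and rose against HUWE1-WT at 0.20.

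The remaining classes were small. SLC17A9 (VNUT), which loads ATP into vesicles, was at 46.6, 42.7 and 40.5 CPM in HUWE1-P, 42.3, 44.2 and 38.4 CPM in HUWE1-WT, and 17.2, 23.3 and 20.9 CPM in HUWE1-CS libraries. The HUWE1-CS libraries were far below the others, at -1.07 (SE 0.171, FDR = 3.22e-07) against HUWE1-P and -1.02 (FDR = 1.49e-06) against HUWE1-WT. It was 1 of 3 vesicular and phosphate carriers, in which SLC17A5 (sialin) was the highest per kilobase and at 0.18. Among 9 carriers of nucleosides and nucleotide sugars, SLC35A5 fell by 0.68 on the log2 scale (FDR = 0.00409, lost in DESeq2 and without any 1 HUWE1-P library or HUWE1-CS replicate 1), from 29.8 ± 0.923 to 18.5 ± 2.71 CPM, but was at -0.26 against HUWE1-WT (FDR = 0.402), whose level was 22.2 ± 2.36 CPM. The nucleoside carrier SLC29A1 (ENT1), the highest of that class per kilobase, was at -0.07. None of the 4 sodium-coupled carriers of family SLC5 was called, and the highest of them per kilobase, the vitamin carrier SLC5A6, was at -0.04.

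**Figure D1:**
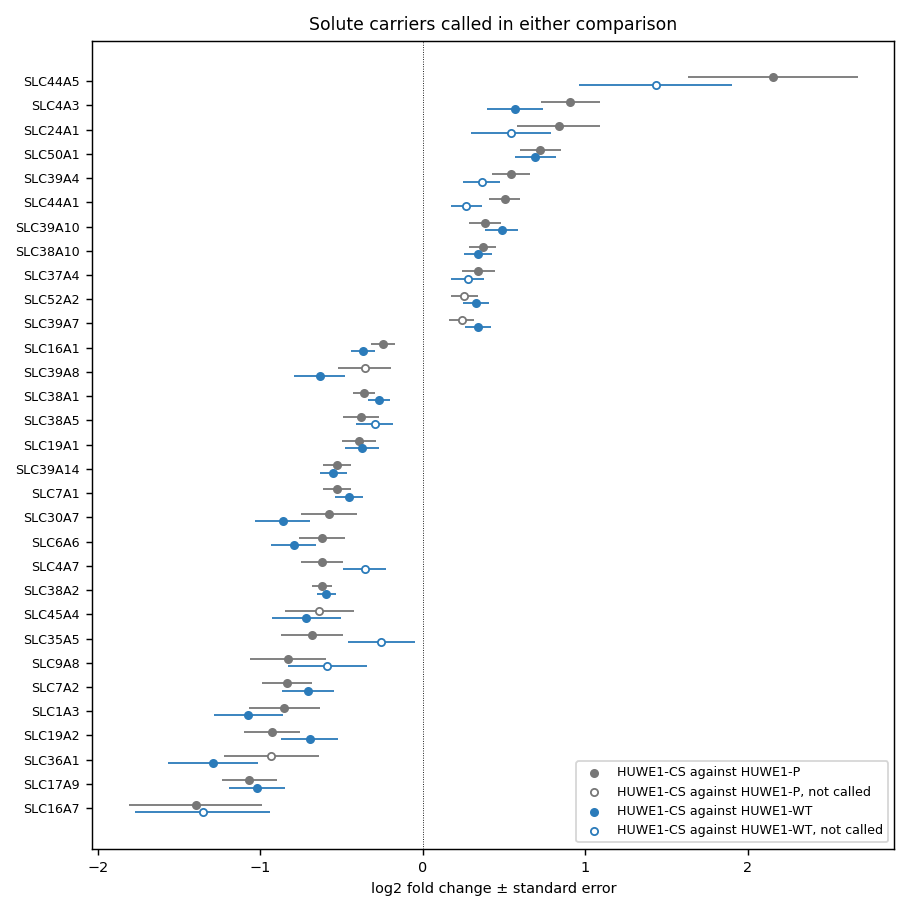
Log2 fold change with standard error (x axis) of the 31 solute carriers called in either comparison (y axis), against HUWE1-P in grey and against HUWE1-WT in blue; open symbols were not called. Every gene has the same sign in both comparisons, which share the HUWE1-CS libraries.

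Exons of some named carriers overlap those of a gene on the other strand, and the counting is not stated to use strand, so that their reads cannot be told apart there. For SLC37A4 the overlap with TRAPPC4 was 868 bases, for SLC19A1 with COL18A1 1563 bases, for SLC24A1 with DENND4A 363 bases, for SLC35A5 with ATG3 124 bases, for SLC39A7 with RXRB 361 bases, and for SLC52A2 with FBXL6 1069 bases. Against HUWE1-P the log2 fold change of the partner was -0.40 in TRAPPC4, 0.99 in COL18A1, -0.68 in DENND4A, -0.26 in ATG3, 0.35 in RXRB and 0.37 in FBXL6, and of these COL18A1 and FBXL6 were called. Transcript length differed as well: the median was 4151 bases for the carriers that rose and 4991 for those that fell, where over all genes it was 2140 and 4456.

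Other transport proteins were counted beside the 17.0% of all genes called against HUWE1-P and the 15.5% called against HUWE1-WT. Of 19 ABC transporters, which pump with ATP, 2 rose and 3 fell against HUWE1-P, the latter being the drug and conjugate exporters ABCC2 (-1.28), ABCC4 (-0.42) and ABCC5 (-1.02). Of these 3, ABCC4 was not called against HUWE1-WT (FDR = 0.0193), where 3 of the 19 were. Of 23 catalytic subunits of P-type ATPases, 3 fell and none rose against HUWE1-P (13.0%), and 1 fell against HUWE1-WT. Of 14 partner chains and gradient pumps tested, 2 rose and 3 fell. Among the latter were the beta chains ATP1B1 (-0.43) and ATP1B3 (-0.37) of the sodium pump, whose gradient drives many of the carriers above; neither was called against HUWE1-WT (FDR = 0.039 and 0.0103). Of 2 organic anion carriers of the SLCO group, SLCO1B3 was called lower (FDR = 0.0026), on 6 counts summed over the HUWE1-CS libraries, each with 3 or fewer, beside 30 over HUWE1-P and 39 over HUWE1-WT. With these counts it passed the filter for low genes only with the help of the HUWE1-WT libraries, where it was highest. That it was tested therefore depends on that line. The ratio of HUWE1-P to HUWE1-CS was 4.73, with an exact 95% interval of 1.94 to 13.9.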

How the data were processed

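RNA-seq counts of 9 HCT116 libraries (3 each of 3 lines) were analysed. The authors purified polyadenylated RNA, sequenced single-end reads, trimmed adapters, mapped reads to hg19 with STAR 2.5.4 and deposited counts per gene without normalization for 11350 genes; how reads were assigned to genes (tool, annotation, strand) and the rule on low genes are not given in the sources used here. Their tables of edgeR 3.26.8 results for the line comparisons (log2 fold changes, p-values, FDR) were not used.

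Counts were fitted with edgeR 4.0.16 in R 4.3.3 (TMM, glmQLFit with the estimator of earlier versions, line as the only term, all 9 libraries) and tested over all genes; filterByExpr removed none. The common biological coefficient of variation was 4.77%. Alternatives used limma 3.58.1 and DESeq2 1.42.0. Replicates differed by more than sampling noise (chi-square per degree of freedom of 1.16 to 1.65). Same-numbered libraries did not deviate together (correlations of -0.0195 to 0.0579). The procedure was tested on simulated counts. Positions and transcript lengths came from GENCODE on GRCh37.

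The members and gene lists were chosen with earlier results of these data known. Genes named were those called in HUWE1-CS against HUWE1-P whose HUWE1-CS libraries lay beyond the 6 others. Full statistics were planned for the largest log2 fold changes among them in each direction. Also named were the highest member of each class in CPM per kilobase and those at 3 counts or fewer in every library of a line. Outside this rule, SLC36A1, SLC39A8 and SLC45A4, called only against HUWE1-WT, and SLC30A1 were added. SLC4A7 and SLC19A1, called against HUWE1-P with overlapping libraries, were added as well. The transport classes and lists were typed from general knowledge. Figures were drawn with matplotlib 3.10.9.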

Additional observations from a re-analysis of the deposited data

How the results depend on the processing

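Against HUWE1-P, where 26 solute carriers were called, DESeq2 called 14 (5 higher, 9 lower; all 14 among the 26), an FDR of 0.05 gave 44, and a further limit of 1 on the size of the log2 fold change left 3. Leaving out 1 library at a time gave between 16 (without HUWE1-CS replicate 2) and 28 calls. Against HUWE1-WT, where 21 were called, DESeq2 called 13 (3 higher, 10 lower), an FDR of 0.05 gave 38, the limit of 1 left 3, and leaving out 1 library gave between 17 and 22. HUWE1-WT against HUWE1-P had 0 calls in every setting. With a replicate block the counts were 28 (10 higher, 18 lower) and 22 (7 higher, 15 lower) and 0; the libraries share only a number, so this fit is given here alone. The other settings (limma-voom, scaling by RLE or by library totals alone, only genes with 10 or more counts per library, fits of the lines compared, a robust fit, the newer estimator, the length trend removed) kept both counts within 1.5 times. The cause of the lower DESeq2 counts was not tested.

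The 37 members covered here are those the naming rule gives, all others called in either comparison with HUWE1-CS, and SLC30A1. Of their values under these settings, none that was past the threshold changed sign; against HUWE1-P, 653 stayed on their side of the threshold, 72 lost a call and 12 gained one, and against HUWE1-WT these numbers were 683, 36 and 17. SLC44A5 could not be tested under the minimum of 10 counts per library or without HUWE1-CS replicate 2, where it fell under the filter. Depth limits carriers of a few CPM, since 3 counts correspond to up to 1.86 CPM.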
